A study of Arabidopsis thaliana with 9 samples.

Results

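MYB3 (AT1G22640), MYB4 (AT4G38620), MYB7 (AT2G16720) and MYB32 (AT4G34990) are transcription factors of Arabidopsis that repress genes of phenylpropanoid metabolism, and they were followed as preys from an Arabidopsis cDNA library screened by the yeast two-hybrid method. The 4 genes were taken by identifier from a table of 10224 genes. MYB3 was chosen by its read level with each bait in these same libraries, and the others because they belong to the same subgroup. The reads of MYB3 across baits are therefore given as a description without a test. Rows were found for 2 of the 4 genes, MYB3 and MYB4. MYB7 and MYB32 had no row in the table analysed here and were counted as not detected.

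The study sequenced prey inserts from yeast grown with PKS5, SCAB1 or SOS2 as bait. PKS5 and SOS2 are plant kinases regulated by calcineurin B-like calcium sensors, and SCAB1 is a plant actin-bundling protein. There were 3 libraries a bait, taken after 0, 2 and 4 h of recovery and numbered replicates 1, 2 and 3 in that order, and every library came from more than 3000 colonies selected without tryptophan, leucine and histidine on 1 mM 3-AT, which inhibits the HIS3 enzyme. No unselected library was labelled, so each bait could only be set against the other baits. Replicates of 1 bait thus had different recovery times, and the labels do not name separate cultures, so p-values measure the spread between these libraries. Libraries held 1640114 to 3288437 reads, and a count of 0, as for MYB7 and MYB32, allows up to 3 reads, or 0.912 to 1.83 CPM (the counts-per-million scale, relative to all reads of the library). That limit covers counting error only, because reads are PCR copies of inserts.

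R2R3-MYB proteins bind DNA through a pair of MYB repeats, and many act with bHLH partners and a WD40 protein. The subgroup of MYB3 and MYB4 carries an EAR-type repression motif near the C terminus and lowers transcription of genes for enzymes such as cinnamate 4-hydroxylase, the second step of the phenylpropanoid pathway that leads to lignin, flavonoids and sunscreen esters. MYB3 is known from Arabidopsis to act with LNK proteins as corepressors, MYB4 as a repressor of cinnamate 4-hydroxylase that is itself lowered by UV-B light, MYB7 as a repressor of flavonol genes, and MYB32 for its role in pollen wall formation. In the screen the proteins were preys in yeast nuclei, so the reads describe which inserts the selected colonies carried and not the activity of these genes in the plant. The reads span the end of the insert next to the vector, so they were not scaled to gene length, and they do not measure how strongly a prey binds.

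MYB3 was among the most read preys with PKS5 and SCAB1 and was read less with SOS2. With PKS5 it had 50074, 63198 and 51804 reads at 0, 2 and 4 h, which were 23725.5, 20883.5 and 24792.5 CPM. With SCAB1 it had 24261, 32568 and 18706 reads, or 12122, 14238.5 and 11405 CPM. With SOS2 it had 5426, 5499 and 12547 reads, or 2471, 2816 and 3815 CPM. The 3 baits did not overlap, and the order PKS5, SCAB1, SOS2 was the same at 0, 2 and 4 h. The means were 23134 ± 2021 CPM (SD, n = 3), 12589 ± 1473 and 3034 ± 698, so that PKS5 stood 1.84-fold above SCAB1 and 7.62-fold above SOS2, and SCAB1 4.15-fold above SOS2.

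As a share of all reads, MYB3 took 2.31% ± 0.202 (SD, n = 3) of the PKS5 libraries, 1.26% ± 0.147 of the SCAB1 libraries and 0.303% ± 0.0698 of the SOS2 libraries. It ranked 8 or 9 among the genes of the PKS5 libraries, 18 to 21 with SCAB1 and 44 to 60 with SOS2, where 5450 to 8594 genes had a read. Among the members it was the gene recovered in quantity with every bait. The spread within a bait was small beside the gaps between baits, with coefficients of variation of 8.73% (PKS5), 11.7% (SCAB1) and 23.0% (SOS2). When the libraries were scaled by TMM factors, which correct for differences in composition, MYB3 had 17125, 47475 and 17322 CPM with PKS5, 7063.5, 25024 and 17671 with SCAB1 and 1039, 2620.2 and 5362 with SOS2. On that scale PKS5 and SCAB1 overlapped, while every SOS2 library stayed below them.

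MYB4, the close relative of MYB3, ran in another order. With PKS5 it had 13, 4 and 29 reads at 0, 2 and 4 h, or 6.16, 1.32 and 13.9 CPM. With SCAB1 it had 2315, 3346 and 2394 reads, or 1157, 1463 and 1459.65 CPM. With SOS2 it had 843, 588 and 1891 reads, or 384, 301 and 575 CPM. On this scale no 2 baits overlapped, and the order SCAB1, SOS2, PKS5 held at each recovery time. After scaling by TMM factors (1.72 for SCAB1 at 0 h, 0.712 for SOS2 at 4 h), SCAB1 and SOS2 overlapped. SCAB1 at 0 h then fell below SOS2 at 4 h, and PKS5 stayed below both baits. The means were 1359.7 ± 176 CPM (SD, n = 3) with SCAB1, 420.0 ± 140.5 with SOS2 and 7.12 ± 6.33 with PKS5, which makes SCAB1 3.24-fold higher than SOS2 and 191-fold higher than PKS5, and SOS2 59.0-fold higher than PKS5.

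**Figure D1:**
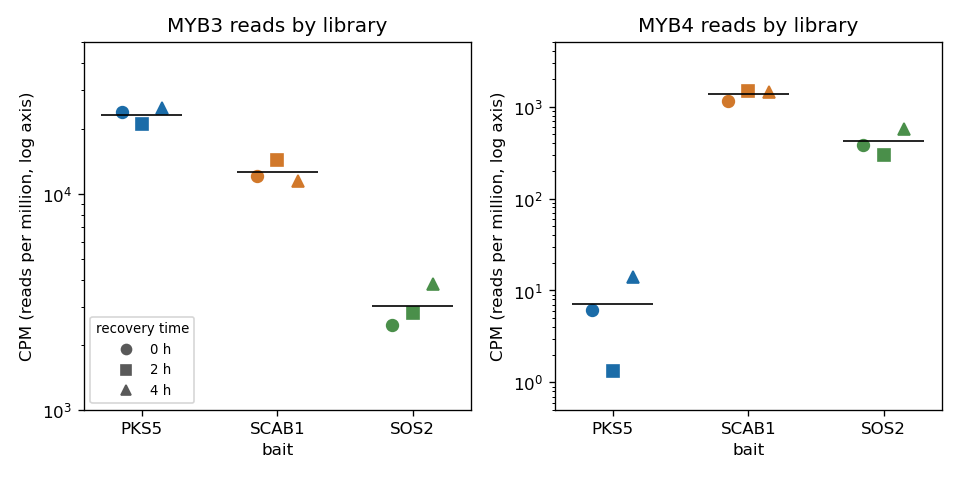
CPM of MYB3 (left) and MYB4 (right) in each library on log axes of different range, by bait, with the recovery time as the marker shape and the mean of 3 libraries as a line. MYB3 lies between 20883.5 and 24792.5 CPM with PKS5 and between 2471 and 3815 with SOS2, while MYB4 lies at 1.32 to 13.9 CPM with PKS5 and at 1157 to 1463 with SCAB1.

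MYB4 was tested across baits because it was added as a relative and not for its reads, although earlier results of these data were known when it was added. The mean of the other baits, on the log2 scale, was the comparator for each bait in limma-voom over 3811 genes, with Benjamini-Hochberg adjustment, so the 3 comparisons share their libraries. MYB4 was lower with PKS5 by a log2 difference of -7.03 (SE 0.54, adjusted p = 6.11e-10), in a comparison in which 27.7% of all tested genes were called, 21.7% as lower and 6.01% as higher. It was higher with SCAB1 by 5.23 (SE 0.55, adjusted p = 6.43e-08), where 35.3% of genes were called and 14.5% were called higher. These calls held under each of 17 alternative settings, with adjusted p-values of 7.21e-29 to 0.00182 for PKS5 and 4.48e-31 to 0.0225 for SCAB1. Counted in distinct reads, which the deposited table heads as unique reads without a definition, the differences were -1.59 and 0.98.

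The third comparison of MYB4 needs both other baits beside it. With SOS2 it was called higher by 1.80 (SE 0.52, adjusted p = 0.00721), against 40.6% of genes called and 27.2% called higher, but the mean of the other baits is taken on the log scale and rests on the low PKS5 level. In CPM of library totals each SOS2 library lay below each SCAB1 library, but after scaling by TMM factors the 2 baits overlapped. This call did not survive the removal of SCAB1 replicate 1 (adjusted p = 0.0838) or of SOS2 replicate 2 (0.0509) or 3 (0.211), nor the use of distinct reads (0.0912). Its adjusted p ran from 0.00014 to 0.211 over the alternatives.

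Across the 9 libraries the log2(CPM + 1) values of MYB3 and MYB4 had a Pearson correlation of -0.534, a description of libraries that share baits. A bait that recovered much MYB3, PKS5, recovered almost no MYB4, while SCAB1 recovered both. The sources used here do not say how reads of similar sequences were assigned, and MYB3, MYB4 and other MYB genes share a conserved DNA-binding domain, so a division of reads among them was not tested.

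Distinct reads, the second value the authors deposited for each gene, separated the baits less than all reads did. MYB3 had 96, 80 and 71 distinct reads with PKS5 at 0, 2 and 4 h and 89 and 70 with SCAB1 at 0 and 2 h, so these baits overlapped. With SOS2 it had 41, 47 and 53, below every library of the other baits. One distinct read of MYB3 stood for 522 to 790 reads with PKS5, 273 to 465 with SCAB1 and 117 to 237 with SOS2. Over all genes of a library it stood for 67.4 to 137 reads with PKS5, 53.9 and 101 with SCAB1 and 45.9 to 87.7 with SOS2. Scaled to each library's total of distinct reads, as CPM of distinct reads, PKS5 gave 3068, 3632 and 2626, SCAB1 2396 and 3095, and SOS2 857, 1105 and 1413. On this scale PKS5 and SCAB1 did not separate, and SOS2 remained below both.

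MYB4 had far fewer distinct reads. There were 5, 2 and 3 with PKS5, 13 and 12 with SCAB1 and 16, 11 and 17 with SOS2, and SCAB1 and SOS2 overlapped. A distinct read of MYB4 stood for 178 and 279 reads in the SCAB1 libraries but for 52.7 to 111 in the SOS2 libraries and 2 to 9.67 with PKS5. Among genes with 0.5 to 2 times its reads in the same library, MYB3 had more distinct reads than 6 of 7, 3 of 4 and 4 of 5 genes in PKS5 replicates 1, 2 and 3 and than 9 of 11 and 13 of 14 in SCAB1 replicates 1 and 2. In the SOS2 replicates it had more than 48 of 97, 29 of 71 and 33 of 63. By rank among all genes in distinct reads it stood at 9 to 12 with PKS5, 17 and 23 with SCAB1 and 74 to 144 with SOS2. MYB4 had more distinct reads than 10.4% and 18.8% of such genes in SCAB1 replicates 1 and 2, than 46.6%, 17.9% and 42.4% in SOS2 replicates 1, 2 and 3 and than 85.6%, 54.5% and 38.7% in the PKS5 replicates. The third SCAB1 library could not be used for distinct reads, because all 10224 of its values repeat those of the second.

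**Figure D2:**
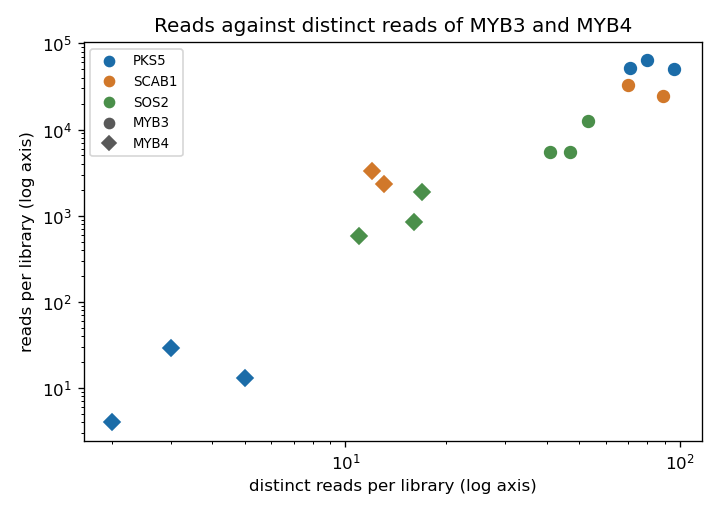
Reads against distinct reads of MYB3 (circles) and MYB4 (diamonds) in the 8 libraries with usable distinct reads, both on log axes, coloured by bait. The MYB3 points of PKS5 and SCAB1 share the range of 70 to 96 distinct reads although PKS5 has more reads, and MYB4 has 2 to 5 distinct reads with PKS5 and 11 to 17 with the other baits.

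Recovery time was not used to choose the genes and was tested with bait as a block. With 1 library for each bait and time, the CPM of MYB3 lay between 0.880-fold and 1.54-fold of the 0 h library of the same bait. With PKS5 it was 0.880-fold its 0 h level at 2 h and 1.04-fold at 4 h, with SCAB1 1.17-fold and 0.941-fold, and with SOS2 1.14-fold and 1.54-fold. MYB4 was 1.26-fold its 0 h level at both later times with SCAB1 and 0.784-fold and 1.498-fold with SOS2. With PKS5, where it had few reads, MYB4 was 0.215-fold and 2.25-fold. By limma-voom the mean of 2 and 4 h differed from 0 h by a log2 difference of 1.43 for MYB3 (SE 0.42, adjusted p = 0.145) and 1.45 for MYB4 (SE 0.43, adjusted p = 0.144), and neither was called.

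No gene of 3811 was called for recovery time by limma-voom (0% called), while 488 had an unadjusted p under 0.05 and limma-trend called 0. The size of these differences turned on the scaling. TMM factors were 1.39, 1.72 and 2.38 in the 0 h libraries and 0.440 to 1.43 in the later ones, and with library size alone the difference of MYB3 was 0.10. The median of all tested genes was 0.07 with TMM and -1.20 with library size alone, so that MYB3 stood 1.35 and 1.30 above that median. Among genes with at least 100 reads in 3 libraries it stood 0.86 above the median, and in distinct reads, where its difference was 0.28, it stood 0.18 above. MYB3 was called without PKS5 replicate 3 (log2 difference 1.63, adjusted p = 0.0159, range over alternatives 0.0159 to 1). MYB4 was called under none of its 17 alternatives (adjusted p = 0.0746 to 1).

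The other MYB genes show whether MYB preys as a family followed one bait. The reference table of gene names gave 121 further MYB genes by symbol or synonym, of which 35 had a row and 11 could be tested. With PKS5 0 of the 11 were called higher and 3 lower, MYB6, MYB112 and MYB89, against 6.01% and 21.7% of all genes, and 4 had an unadjusted p under 0.05. With SCAB1 2 were higher, MYB6 and MYB25, and 5 lower, against 14.5% and 20.8%. With SOS2 6 were higher, namely MYB6, MYB112, MYB73, MYB47, MYB89 and MYBR1, and 1 lower, MYB25, against 27.2% and 13.4%. For MYB112 and MYB89 the mean CPM with PKS5 was above that with SCAB1. Their lower calls with PKS5 thus rest on the SOS2 level within the log mean of the other baits. In CPM their SCAB1 and PKS5 libraries overlapped, so their lower calls with SCAB1 also rest mainly on the SOS2 level. The mean CPM of MYB6 with SOS2 was below that with SCAB1, so its higher call with SOS2 rests on the low PKS5 level. Of the 11 genes 6 reached the filter only through the bait where they were highest, namely MYB112, MYB89, MYB25, MYB47, MYB63 and MYB49. The filter favours a difference in such genes, although MYB63 and MYB49 were called for no bait. MYB89, MYB25, MYB47 and MYBR1 are named because they were called, and MYB63 and MYB49 because of the filter. All of these were picked after their values were seen. For recovery time 0 of the 11 were called by limma-voom or limma-trend, and 2 had an unadjusted p under 0.05.

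MYB6 had the most reads of these genes. It is an R2R3-MYB factor, and it had 28.9, 13.2 and 22.5 CPM with PKS5, 4519, 8045 and 5676 with SCAB1 and 3313, 4927 and 5743 with SOS2. The PKS5 libraries lay far below all others, and SCAB1 and SOS2 overlapped. MYB6 was lower with PKS5 by a log2 difference of -7.99 (SE 0.48, adjusted p = 1.95e-11 by limma-voom). Its log2(CPM + 1) values had a Pearson correlation of 0.972 with those of MYB4 over the 9 libraries, as a description. High values were not particular to MYB genes. Of 883 tested genes with a mean of at least 100 CPM for a bait, 74 (8.38%) had a correlation over 0.9 with MYB4. It had 37 to 50 distinct reads with SCAB1, 51 to 61 with SOS2 and 5 to 9 with PKS5.

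MYB112 and MYB73 were the other MYB genes among the 5 with the highest mean. MYB112, a factor known to promote anthocyanin formation under stress, had 638, 328 and 979 CPM with SOS2 and at most 8.61 with the other baits. It reached the filter through SOS2 alone, so its call as higher with SOS2 is not given as a test. It had 6, 15 and 17 distinct reads with SOS2 and 1 in every other usable library. MYB73 had 55.8 ± 27.6 CPM (SD, n = 3) with SOS2, 17.0 ± 9.92 with PKS5 and 11.6 ± 10.005 with SCAB1. It was called higher with SOS2 by 1.67 (SE 0.36, adjusted p = 0.00048), but not in distinct reads (adjusted p = 0.778, range 0.000101 to 0.778). Its call as lower with SCAB1 (log2 difference -1.18, adjusted p = 0.0211) was lost in 6 of 16 alternatives, among them the removal of SCAB1 replicate 1 (adjusted p = 0.116), 2 (adjusted p = 0.107) or 3 (adjusted p = 0.059).

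**Figure D3:**
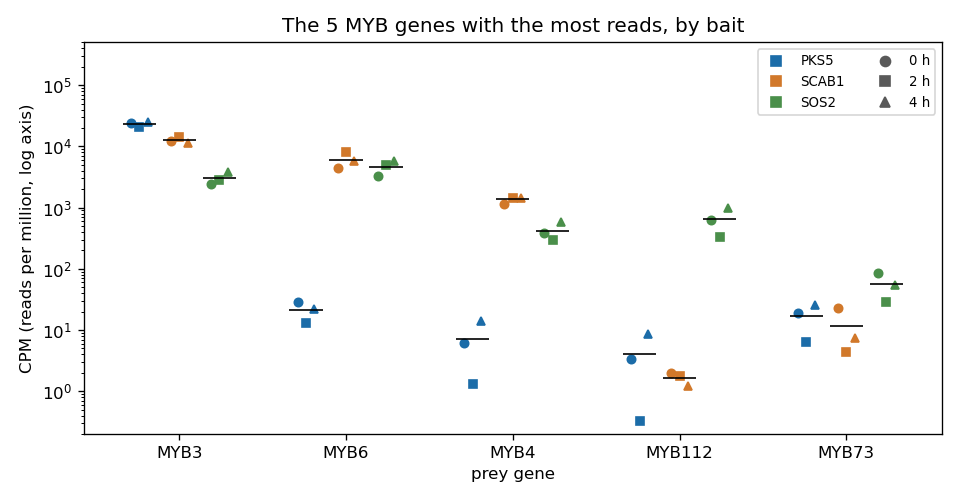
CPM of the 5 MYB genes with the highest mean for any bait, on a log axis, with 1 point per library, bait as the colour, recovery time as the marker shape and the mean as a line. MYB3 is highest with PKS5, MYB6 and MYB4 lie at 1.32 to 28.9 CPM with PKS5, and MYB112 reaches 979 CPM with SOS2.

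Genes whose reads followed those of MYB3 were sought by Pearson correlation of log2(CPM + 1) over the 9 libraries among 883 tested genes with a mean of at least 100 CPM for a bait. Correlations over 0.9 were found for 6 of them, or 0.680%. The 5 highest were AT1G70790, a C2-domain protein (r = 0.990), BIM1, a bHLH transcription factor of brassinosteroid signalling (r = 0.979), HB27, a homeodomain factor (r = 0.940), AT4G02840 (r = 0.929) and AT1G21528 (r = 0.926). These values describe the libraries, which share baits, and the gene was chosen for its reads, so they carry no test. AT1G70790 had 123601 ± 9935 CPM (SD, n = 3) with PKS5, 38201 ± 3649 with SCAB1 and 4747 ± 406 with SOS2.

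The followers differed from MYB3 in level and in how steep the order was. BIM1 had 202 ± 150.1 CPM with PKS5 and 23.1 ± 5.90 with SCAB1 and was at 0 reads in each SOS2 library, which allows up to 1.54 CPM in the shallowest of them. HB27 had 121 ± 26.0, 29.3 ± 4.67 and 2.44 ± 1.61 CPM in the same order. AT1G21528 had 198 ± 40.7 with PKS5 and 226 ± 32.8 with SCAB1, so that it parted from MYB3 in the step between these baits. For MYB4, 74 of the 883 genes (8.38%) had a correlation over 0.9. For recovery time none of the 5 followers was called, and AT1G70790 had a log2 difference of 1.40 (adjusted p = 0.17 by limma-voom). The correlation that picked the followers used libraries of every recovery time, so a likeness to MYB3 in this difference is partly built in.

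**Figure D4:**
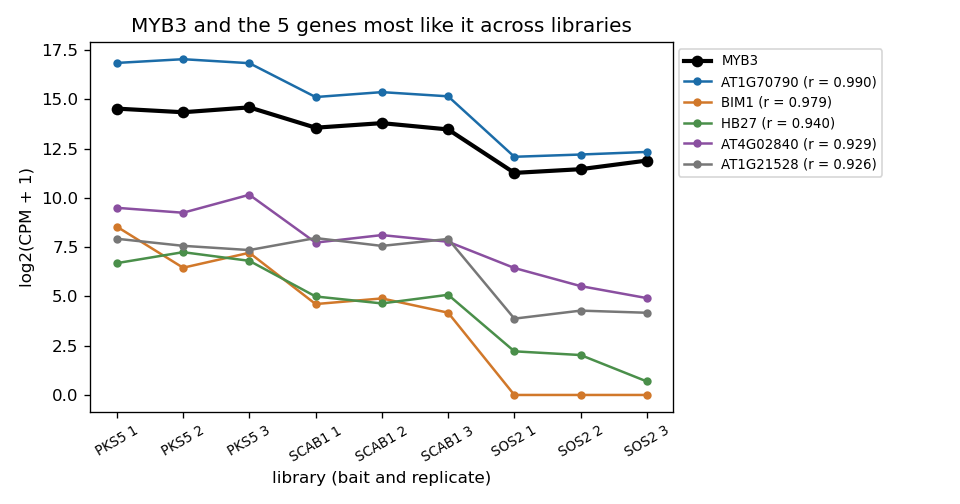
The log2(CPM + 1) value of MYB3 (black) and of the 5 genes with the highest Pearson correlation to it in each of the 9 libraries, ordered by bait and replicate. MYB3 and AT1G70790 step down from PKS5 to SCAB1 to SOS2, BIM1 reaches 0 in SOS2, and AT1G21528 is level between PKS5 and SCAB1.

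Few partners and cofactors of the MYB repressors had enough reads to test. Of the bHLH proteins TT8, GL3, EGL3 and MYC1 and the WD40 protein TTG1, which form transcription complexes with MYB factors, 2 of 5 had a row and none could be tested, with a highest level in any library of 1.42 CPM, for TT8. Of 8 cofactors of repression, 6 had a row and 1 was tested. That gene was TPR1, a corepressor related to TOPLESS, with 77.4 ± 33.7 CPM (SD, n = 3) in SOS2, 5.85 ± 3.22 in PKS5 and 2.62 ± 1.15 in SCAB1. It reached the filter through SOS2 alone, so its calls as higher with SOS2 and lower with SCAB1 are not given as tests. In distinct reads the SOS2 call was lost (adjusted p = 0.272 by limma-voom). The SCAB1 call was lost in distinct reads and without SCAB1 replicate 1 (adjusted p = 0.101 by limma-voom). The single-repeat MYB repressors had 3 of 6 members with a row and 1 tested, MYBL2, an inhibitor of anthocyanin genes, at 5.22 ± 2.51, 3.72 ± 1.55 and 7.29 ± 4.41 CPM with PKS5, SCAB1 and SOS2. MYBL2 was not called for any bait.

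Enzymes of phenylpropanoid metabolism were also read as preys. Of 21 phenylpropanoid and lignin enzymes, 17 had a row and 13 were tested. With PKS5 1 was called higher, ALDH2C4, and 6 lower, against 6.01% and 21.7% of all genes, and their median log2 difference was -1.80 beside -0.14 for all tested genes. With SCAB1 2 were higher, PAL1 and CAD4, and 5 lower, against 14.5% and 20.8%, with a median of -1.01 beside -0.21. With SOS2 5 were higher, CCR1, CCR2, C4H, CCoAOMT1 and HCT, and 1 lower, PAL1, against 27.2% and 13.4%, with a median of 0.58 beside 0.16. For HCT, CCR1 and C4H the mean CPM with PKS5 was above that with SCAB1. Their lower calls with PKS5 thus rest on the SOS2 level within the log mean of the other baits. In CPM their SCAB1 and PKS5 libraries overlapped, so their lower calls with SCAB1 also rest mainly on the SOS2 level. The mean CPM of PAL1 with SOS2 was above that with PKS5, so its lower call with SOS2 rests on the SCAB1 level. In CPM the PKS5 and SOS2 libraries of PAL1 overlapped, so its lower call with PKS5 also rests mainly on the SCAB1 level. CCR2 overlapped between PKS5 and SCAB1, so its lower call with PKS5 rests mainly on the SOS2 level. For CCoAOMT1 each PKS5 library lay below every library of the other baits. Of the 13 genes 4, CCR2, CAD4, ALDH2C4 and SNG1, reached the filter only through the bait where they were highest, and these genes and OMT1 are named after their values were seen.

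The enzymes described next were picked by a mean of at least 100 CPM, which each reached only with its highest bait. That choice favours a difference between baits, so their p-values are a description. HCT, a shikimate transferase of lignin synthesis, had the highest level of the list. It had 895 ± 353 CPM (SD, n = 3) with SOS2 against 16.5 ± 11.01 with PKS5 and 9.36 ± 4.90 with SCAB1, a log2 difference of 5.85 (SE 0.45) with an adjusted p of 3.73e-10 in limma-voom. CCR1, which reduces cinnamoyl-CoA esters on the way to lignin, had 583 ± 124 CPM with SOS2, 20.3 ± 11.2 with PKS5 and 16.5 ± 10.99 with SCAB1. C4H, cinnamate 4-hydroxylase, had 271 ± 93.6 CPM with SOS2, 6.97 ± 4.08 with PKS5 and 4.44 ± 3.19 with SCAB1. PAL1, phenylalanine ammonia-lyase, the first enzyme of the pathway, was read with another bait, at 553 ± 169 CPM with SCAB1 against 11.2 ± 10.8 with PKS5 and 13.8 ± 8.75 with SOS2 (log2 difference 6.20, SE 0.48, adjusted p = 5.19e-10). CCoAOMT1, a methyltransferase of lignin synthesis, had 163 ± 62.2, 25.2 ± 15.6 and 75.0 ± 20.1 CPM with SOS2, PKS5 and SCAB1. With distinct reads the SOS2 calls of HCT and C4H held. The SOS2 call of CCR1 was lost (adjusted p = 0.0548, range 2.36e-21 to 0.0548) and that of CCoAOMT1 turned (log2 difference -0.12, adjusted p = 0.695, range 0.000346 to 0.695) and was also lost without SOS2 replicate 3 (adjusted p = 0.0504). None of the PKS5 calls of HCT, CCR1, PAL1, C4H and CCoAOMT1 held in distinct reads, where their adjusted p-values were 0.240 to 0.994. The lower calls of HCT, CCR1 and C4H with SCAB1 were lost there too (adjusted p = 0.172, 0.287 and 0.102 by limma-voom).

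Of 14 flavonoid enzymes and transporters 6 had a row and 3 were tested. With PKS5 0 were higher and 2 lower, TT4 and FLS1, against 6.01% and 21.7% of all genes, with an unadjusted p under 0.05 for 2. For FLS1 the mean CPM with PKS5 was above that with SCAB1, so its lower call with PKS5 rests on the SOS2 level. With SCAB1 TT4 was higher and FLS1 lower, against 14.5% and 20.8%. In CPM the SCAB1 and PKS5 libraries of FLS1 overlapped, so its lower call with SCAB1 also rests mainly on the SOS2 level. With SOS2 FLS1 and TT7, the latter named after its value was seen, were higher and 0 were lower, against 27.2% and 13.4%. In distinct reads the PKS5 calls of TT4 (adjusted p = 0.652) and FLS1 (adjusted p = 0.397) and the SCAB1 call of FLS1 (adjusted p = 0.324) were lost. TT4, chalcone synthase, the entry enzyme of flavonoid synthesis, had 201 ± 17.9 CPM (SD, n = 3) with SCAB1, 93.2 ± 42.1 with SOS2 and 32.4 ± 22.2 with PKS5. Its SCAB1 call by limma-voom, a log2 difference of 2.45 (SE 0.38, adjusted p = 1.87e-05), did not hold in distinct reads (adjusted p = 0.371, range 1.24e-11 to 0.371). FLS1, flavonol synthase, had 258 ± 101 CPM with SOS2 against 4.08 ± 3.25 with PKS5 and 2.90 ± 2.72 with SCAB1. Its log2 difference for SOS2 was 6.02 (SE 0.52, adjusted p = 2.14e-09 by limma-voom). TT4 and FLS1 were also picked by a mean of at least 100 CPM. Each reached that level only with its highest bait, so their p-values are a description.

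**Figure D5:**
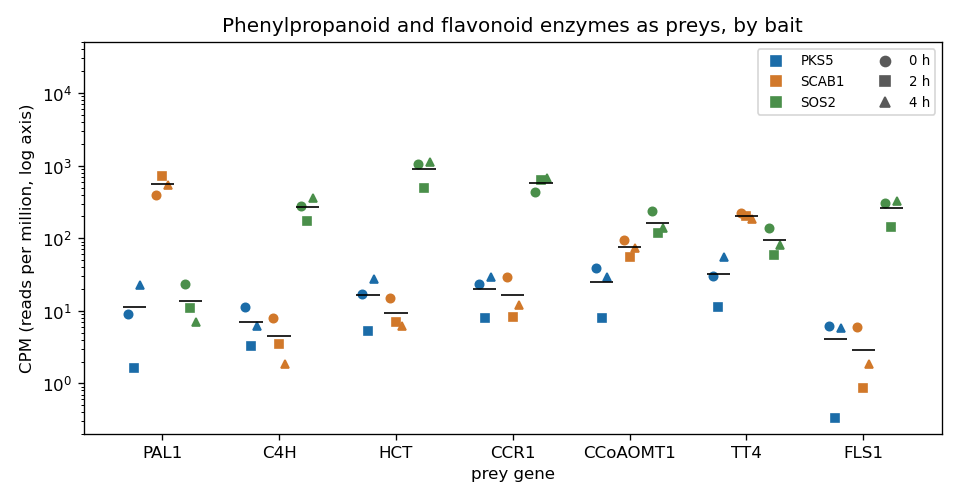
CPM of the 7 phenylpropanoid and flavonoid enzymes with a mean of at least 100 CPM for a bait, on a log axis, with 1 point per library, bait as the colour, recovery time as the marker shape and the mean as a line. HCT, CCR1, C4H and FLS1 are highest with SOS2, PAL1 and TT4 with SCAB1, and none of the 7 is highest with PKS5.

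Class I TCP proteins, another group of plant transcription factors, were also read as preys. Of 11 genes 8 had a row and 4 were tested, and 0 were called for any bait by limma-voom, 0 by limma-trend and 0 at an unadjusted p under 0.05, where 27.7% of all genes were called for PKS5, 35.3% for SCAB1 and 40.6% for SOS2. TCP21, the highest of them, had 228 ± 54.3 CPM (SD, n = 3) with PKS5, 235 ± 98.4 with SCAB1 and 226 ± 88.8 with SOS2, and its log2 difference for PKS5 was 0.16 (SE 0.38, adjusted p = 0.836). Its CPM ranges overlapped between all baits.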

How the data were processed

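Per the labels' protocols, prey plasmids were extracted from selected yeast, and inserts were amplified, sheared and sequenced from fragments holding vector sequence. CASAVA, cutadapt 1.18, HISAT2 and the TAIR10 build were used, per the submitters' processing notes, which give no step for each. The assignment of reads to genes is not described in these sources. Per the file headers, the authors deposited whole-number read counts and unique (here distinct) read counts per gene, not normalized, with marks for empty cells, read as 0. Of the columns 1 was not used, the distinct reads of SCAB1 replicate 3, which gave 1429 genes more distinct reads than reads.

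Symbols were taken from RefSeq's gene table for TAIR10.1 (10201 of 10224 identifiers matched). No coordinates or sequences are given. Of 68 list genes 65 had the listed name there, and 3 were left out. The members and lists were chosen with earlier results of these data known. Named genes were the members, the 5 genes most like MYB3, list genes with a mean of at least 100 CPM or the highest of their list, and the 5 highest MYB genes, so these were picked by level.

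Genes reaching the level of 10 reads in a library of median size in 3 or more libraries, and a total of 15 reads (3811 genes), were tested by limma-voom (limma 3.58.1, R 4.3.3) with TMM factors (30% of M and 5% of A values trimmed), robust variances and an offset of 0.5. Adjusted p under 0.05 was called. Count models were not used. All 9 libraries entered each fit, and the test was tried on simulated data. CPM used library totals. Tables were made in Python 3.11.15.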

Additional observations from a re-analysis of the deposited data

How the results depend on the processing

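Read depth limits low members: MYB4 had 4 to 29 reads with PKS5, and PCR copies make reads less certain than counting error alone. Scaling moved MYB3. Its log2 level of PKS5 over SCAB1 was 0.88, 1.55 after removal of genes above 5% of a library and 0.18 with distinct reads, PKS5 over SOS2 was 2.95 (3.30 with TMM, 3.66 without those genes, 1.48 with distinct reads), and SCAB1 over SOS2 was 2.07 (2.58 with TMM, 1.30 with distinct reads). With TMM and with distinct reads, PKS5 and SCAB1 overlapped. Leaving out 1 library gave 0.81 to 0.97, 2.82 to 3.13 and 1.93 to 2.25.

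MYB4 with SOS2 fell to 0.61 with distinct reads and ran from 0.79 to 2.15 over single libraries left out; its PKS5 and SCAB1 values ran from -7.48 to -6.51 and 4.92 to 5.88, and its recovery values from 1.13 to 1.79. MYB3 for recovery ran from 1.17 to 1.70. CCoAOMT1 with SOS2 turned to -0.12 with distinct reads.

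PKS5 had 1056 genes called (21.7% of them higher), where library size alone gave 679, removal of genes above 5% gave 575 (39.3% higher) and distinct reads gave 323. SCAB1 gave 1345, then 830 with library size alone, 814 with at least 100 reads and 454 with distinct reads. SOS2 gave 1546, then 979 with at least 100 reads and 690 with distinct reads. Recovery gave 0, then 1172 with library size alone (0 higher), 934 without genes above 5% (1 higher) and 27 with at least 100 reads. Single libraries left out gave 850 to 989, 960 to 1349, 1181 to 1488 and 0 to 43. Causes were not tested.

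Replicate numbers are recovery times. Deviations of same-numbered libraries of different baits correlated at -0.0165 to 0.221, and those of differently numbered libraries at -0.267 to 0.203. The main bait fits did not take them as pairs. A replicate block called 1184 genes for PKS5, 1521 for SCAB1 and 1660 for SOS2. With the replicate block the MYB4 differences were -7.05, 5.23 and 1.82, and no call of MYB4 changed. A fit without the bait block called 0 genes for recovery.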
